A study of Mus musculus with 15 samples.

Results

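The Notch pathway genes followed here were 10 of the 55536 genes in the deposited tables, picked by name: the ligand genes Dll1, Dll4, Jag1 and Jag2, the receptor genes Notch1 and Notch2, and the target genes Hes1, Hey1, Heyl and Nrarp. They were read in skeletal muscle RNA of 15 samples labelled as from male mice aged 2 months. The groups were 5 controls of wild-type genotype, 5 samples whose label gives a myogenin-specific PdgfrB knockout, and 5 samples labelled PdgfrB D489V. The last is a constitutively active form of this receptor for platelet-derived growth factor, in the same cells. Myogenin is a transcription factor of differentiating muscle cells, and whole muscle also holds vessel, nerve, fat and connective tissue cells. The labels name neither the muscle nor the driver allele nor the strain, and do not say whether the controls carry a driver. They also do not say whether samples came from separate animals beyond the replicate number, and p-values then measure the spread between these samples.

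Notch receptors sit in the cell membrane and bind ligands of the Delta-like and Jagged families on neighbouring cells. Binding leads to cleavage of the receptor, and its freed intracellular part joins the DNA-binding protein RBPJ and Mastermind coactivators in the nucleus, where it turns on repressor genes of the HES and HEY families and the feedback inhibitor Nrarp. In skeletal muscle the pathway is known for keeping satellite cells, the resident stem cells, quiescent, and in vessels for arterial identity and for the choice between sprouting and non-sprouting endothelial cells.

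Normalized counts summed to between 29815559 and 36489777 in each sample. The summed level of 10 muscle fibre markers was 5904465 to 8401972 and none of them was at 0, so each sample held muscle RNA. Pdgfrb itself was lower in every knockout (958 to 1628) and every D489V sample (820 to 1062) than in every control (1673 to 1848). Against its label as male, knockout 3 had Xist, the RNA of the inactive X chromosome, at 3165 normalized counts, and no other sample exceeded 101. Control 5 and knockout 3, 4 and 5 held 1775 to 7129 normalized counts of 14 lymphocyte and venule markers, against 42 to 361 in the other samples. Results are therefore also given without these libraries. D489V 3 held 50729 normalized counts of 10 Schwann and nerve markers, against 12667 to 15465 in the other D489V samples.

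All 10 genes are protein-coding and passed the filter on low values in each comparison, so every member was tested. On GRCm38, Nrarp (ENSMUSG00000078202) lies on chromosome 2 at 25180758 to 25183339, plus strand, and Notch1 (ENSMUSG00000026923) on chromosome 2 at 26457903 to 26516663, minus strand. Dll4 (ENSMUSG00000027314) lies on chromosome 2 at 119325784 to 119335962, plus strand, and Jag1 (ENSMUSG00000027276) on chromosome 2 at 137081456 to 137116644, minus strand. Dll1 (ENSMUSG00000014773) lies on chromosome 17 at 15367354 to 15376872, minus strand, and Hes1 (ENSMUSG00000022528) on chromosome 16 at 30064384 to 30067796, plus strand. Genes annotated on the opposite strand overlap Notch1, Dll1, Dll4 and Nrarp. The highest level among them was 53 normalized counts, for Gm14207 over Dll4, and whether counting used the strand is not given in the sources used here.

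The promoters of 4 members that were lower in knockout than in D489V are shown because HES proteins bind the N-box CACNAG and RBPJ binds TGGGAA. RefSeq on GRCm38.p6 gave 8 start sites for 7 of the members, and the 250 bases before each were searched on both strands for both motifs. RefSeq start sites can differ from the gene bounds given above. The Notch1 window lies inside those bounds, which reach 26516663, and the Jag1 window overlaps the bound at 137116644. Capitals mark N-box matches on either strand, and each sequence is written 5′ to 3′ on the strand of the gene.
Nrarp, chr2:25180508-25180757, plus strand: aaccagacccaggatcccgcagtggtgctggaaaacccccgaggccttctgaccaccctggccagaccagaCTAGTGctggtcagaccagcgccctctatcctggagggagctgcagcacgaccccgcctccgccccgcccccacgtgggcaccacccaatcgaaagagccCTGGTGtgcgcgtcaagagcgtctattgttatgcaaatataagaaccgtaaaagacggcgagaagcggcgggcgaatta
Dll4, chr2:119325534-119325783, plus strand: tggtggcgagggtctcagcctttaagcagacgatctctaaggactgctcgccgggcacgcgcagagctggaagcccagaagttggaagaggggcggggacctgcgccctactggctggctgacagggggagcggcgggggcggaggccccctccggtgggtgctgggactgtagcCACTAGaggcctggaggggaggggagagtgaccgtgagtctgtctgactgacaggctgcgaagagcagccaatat
Notch1, chr2:26503823-26504072, minus strand: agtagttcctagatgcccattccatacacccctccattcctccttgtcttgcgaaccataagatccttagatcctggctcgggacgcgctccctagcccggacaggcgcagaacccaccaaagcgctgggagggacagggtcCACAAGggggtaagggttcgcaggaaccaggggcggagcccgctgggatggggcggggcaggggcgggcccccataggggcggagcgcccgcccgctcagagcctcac
Jag1, chr2:137116521-137116770, minus strand: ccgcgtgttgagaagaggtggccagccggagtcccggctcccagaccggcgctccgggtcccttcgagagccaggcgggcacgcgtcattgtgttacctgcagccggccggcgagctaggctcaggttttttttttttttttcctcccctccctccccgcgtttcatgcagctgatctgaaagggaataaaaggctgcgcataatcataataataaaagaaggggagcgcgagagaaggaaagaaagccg
The Nrarp window held 2 N-box matches, beginning 179 and 79 bases before the start site, the Dll4 window 1 at 75 and the Notch1 window 1 at 108. The Jag1 window held none, nor did either window of Dll1 or that of Jag2. N-box matches were thus in 4 of the 8 windows, including 1 of Notch2, against 36.7% of 32851 mouse promoter windows of the same length. TGGGAA was in 0 of the 8 windows, against 21.6% of all, so no match of one motif overlapped the other here. A match is a run of letters and not a shown binding site.

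Levels were compared between the 10 genes per kilobase of exon in controls. Hes1 had the highest mean level, at 239 ± 39.9 normalized counts per kilobase (SD, n = 5), followed by Jag2 at 224 ± 9.61, a difference within the spread of Hes1. Nrarp at 174 ± 46.7 and Dll4 at 158 ± 41.0 did not differ beyond their spread. Heyl followed at 106 ± 4.52. Dll1 at 79.7 ± 21.2, Jag1 at 77.3 ± 25.3 and Hey1 at 70.3 ± 16.7 could not be ordered within their spread. Notch1 at 51.2 ± 6.81 and Notch2 at 37.0 ± 6.16 had the lowest means of the 10, and Notch1 lay within the spread of Hey1. The receptor genes outside the 10 were higher, with Notch3 at 188 ± 24.9 and Notch4 at 122 ± 7.28 normalized counts per kilobase.

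The direct comparison of knockout with D489V muscle asked whether labelled loss and labelled activation of the same receptor differ for these genes. Pdgfrb RNA itself was higher in knockout than in D489V, with overlap (log2 change 0.51, limma adjusted p 0.0258). In that comparison 6 of the 10 members were lower in knockout (Notch1, Dll1, Dll4, Jag1, Hes1 and Nrarp) and 0 were higher, in limma at a Benjamini-Hochberg adjusted p under 0.05 over 15299 genes. Of all genes tested, 10.3% were called lower. Groups did not overlap for 6 members, all lower in knockout (Notch1, Dll1, Jag1, Hes1, Heyl and Nrarp), against 6.7% of all genes. The median log2 change of the 10 was -0.55, against 0.00 over all genes. The members were chosen with earlier results of these data known, so these counts describe them. Without knockout 3, 5 members and 2273 of 15152 genes were called, against 3181 of 15299 genes with all samples. Leaving out knockout 3, 4 and 5, the libraries of this comparison rich in lymphocyte and venule RNA, left 2 knockout samples. In that fit 2 members were called, Jag1 (log2 change -0.87, limma adjusted p 0.00687) and Nrarp (-0.92, limma adjusted p 0.049). Calls over all genes went from 3181 to 586 of 14706. There the log2 change was -0.49 for Dll4, -0.60 for Dll1, -0.48 for Notch1 and -0.46 for Hes1 (limma adjusted p 0.172, 0.14, 0.0625 and 0.169). With upper-quartile rescaling 7 members and 2534 of 15189 genes were called. Of those genes 32.9% were higher in knockout, against 50.3% of the genes called as deposited.

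**Figure D1:**
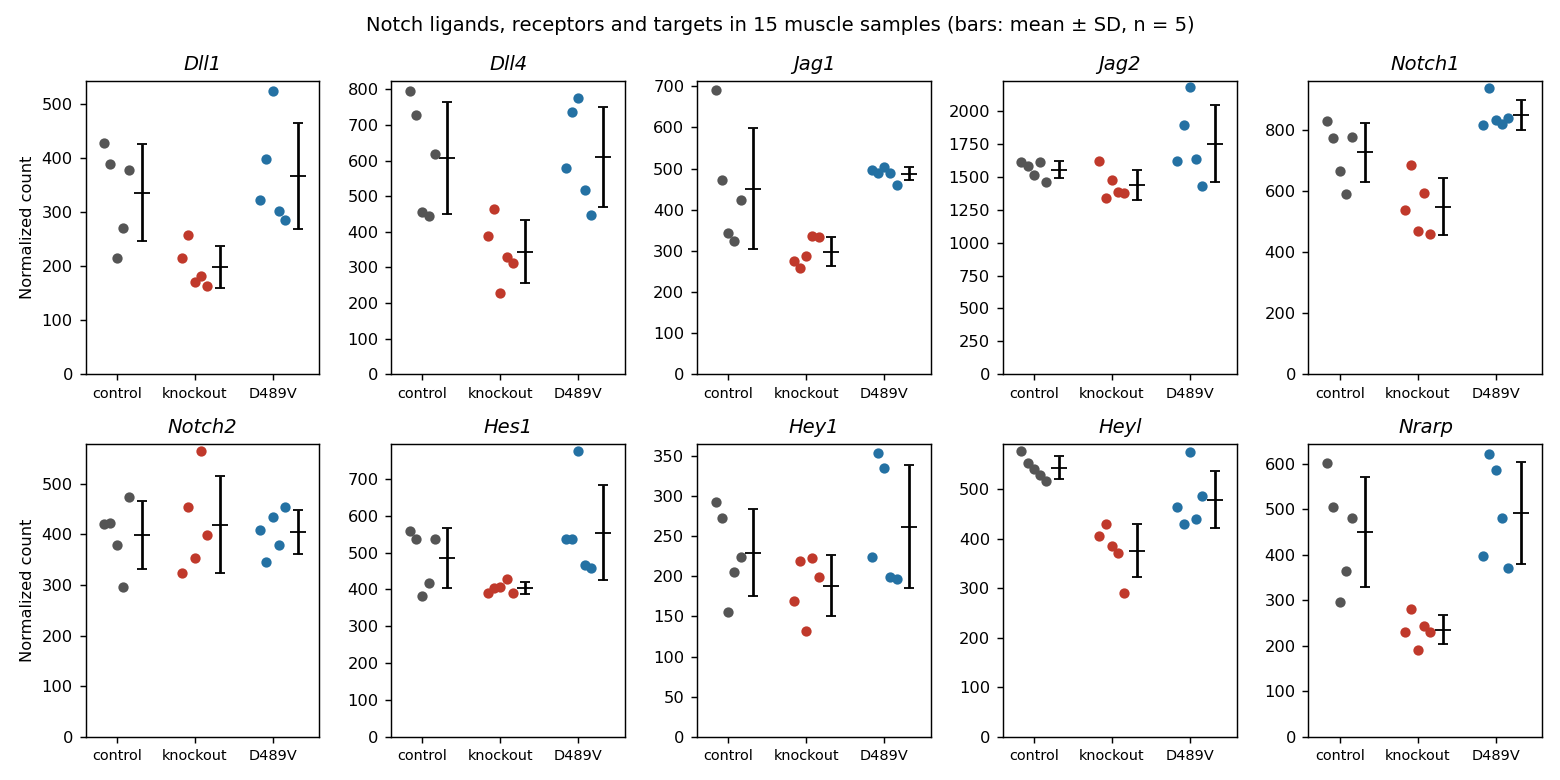
Normalized count (y axis, from 0) of each of the 10 genes in each sample, by group; points are samples 1 to 5 from left to right and the bar beside them is the mean ± SD (n = 5). The knockout points of Nrarp, at 192 to 281, sit below all points of both other groups, while those of Notch2 overlap both.

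Among the ligands, Dll4 is the Delta-like ligand of endothelial cells. In controls 1 to 5 it held 795, 727, 456, 443 and 617 normalized counts, in knockout 389, 463, 227, 330 and 313, and in D489V 580, 736, 775, 516 and 448. Controls 3 and 4 and D489V 5 reached down to the highest knockout sample, so the groups overlapped. Dll4 was 1.78-fold lower in knockout than in D489V, a difference of -0.83 ± 0.197 log2 units (SE; limma adjusted p 0.0154).

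Dll1, the Delta-like ligand known from myogenic cells and from some vessels, held 428, 389, 215, 270 and 379 normalized counts in controls. It held 216, 257, 171, 182 and 163 in knockout and 323, 398, 525, 302 and 285 in D489V. Every knockout sample lay below every D489V sample, while control 3 lay within the knockout range. The difference of knockout against D489V was -0.87 ± 0.182 log2 units (SE; limma adjusted p 0.00983).

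Jag1, a Jagged ligand made by endothelial and mural cells, held 461 at lowest, 488 at the median and 504 at highest in D489V, the tightest of the 30 group spreads relative to its mean, at 3.35%. It held 275, 257, 287, 337 and 333 in knockout, and no knockout sample reached a D489V sample. In controls it ran from 323 to 691, with control 1 highest and controls 3 and 4 within or near the knockout range. The difference of knockout against D489V was -0.72 ± 0.0991 log2 units (SE; limma adjusted p 0.00224), the smallest adjusted p of the 10.

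Jag2, the other Jagged ligand, did not pass. Its normalized counts were 1615, 1584, 1518, 1611 and 1460 in controls, 1619, 1337, 1479, 1385 and 1377 in knockout, and 1624, 1898, 2188, 1635 and 1430 in D489V. Knockout 1 lay above all controls, and D489V 5 lay below knockout 1 and 3. The log2 change of knockout against D489V was -0.27 (limma 95% interval -0.52 to -0.03, adjusted p 0.0966).

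Of the receptors, Notch1 acts in endothelial and satellite cells among others. Its normalized counts were 831, 775, 668, 591 and 777 in controls, 538, 685, 471, 595 and 459 in knockout, and 818, 938, 835, 822 and 842 in D489V. The D489V samples were all above the knockout samples, and 4 of the 5 controls lay below every D489V sample. Knockout was lower than D489V by a difference of -0.64 ± 0.113 log2 units (SE; limma adjusted p 0.00513).

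Notch2, known from satellite cells and from B cells, held 421, 423, 379, 297 and 475 in controls. It held 323, 454, 354, 566 and 399 in knockout and 408, 345, 435, 379 and 454 in D489V. The 3 groups overlapped throughout, and the highest sample, knockout 4, was one of those rich in lymphocyte markers. The log2 change of knockout against D489V was 0.03 (limma 95% interval -0.29 to 0.35, adjusted p 0.899). Neither receptor gene outside the list passed: Notch3, the receptor of mural cells, had a log2 change of -0.09 (limma adjusted p 0.585) and Notch4, an endothelial receptor, one of -0.20 (adjusted p 0.28).

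Of the targets, Nrarp, an ankyrin-repeat protein that promotes loss of the active receptor fragment, had the greatest difference of the 10. It held 602, 506, 297, 364 and 482 normalized counts in controls, 231, 281, 192, 244 and 230 in knockout, and 398, 623, 587, 481 and 372 in D489V. All knockout samples lay below all samples of both other groups. Nrarp was 2.06-fold lower in knockout than in D489V, a difference of -1.04 ± 0.158 log2 units (SE; limma adjusted p 0.00309).

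Hes1, a repressor of the HES family, held 560, 536, 381, 417 and 537 in controls and 390, 403, 408, 428 and 390 in knockout. In D489V it held 537, 536, 776, 466 and 458, with D489V 3, the sample rich in Schwann and nerve markers, highest. Every knockout sample was below every D489V sample, but controls 3 and 4 lay in or below the knockout range. The difference of knockout against D489V was -0.43 ± 0.133 log2 units (SE; limma adjusted p 0.0396). This was the weakest of the 6 calls. Of 23 alternative settings 8 kept it, 14 lost it and 1 changed its sign. The 14 include the fit with the replicate number as a block (limma adjusted p 0.062) and 8 of the 10 fits that left out one sample. Those 8 left out any one knockout sample or D489V 1, 2 or 3 (limma adjusted p 0.0522 to 0.0813).

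Hey1 and Heyl, repressors of the HEY family, did not pass. Hey1 held 292, 272, 155, 205 and 224 in controls, 169, 219, 132, 223 and 199 in knockout, and 224, 354, 335, 199 and 196 in D489V. Only D489V 2 and 3 stood clearly above the knockout samples, and the difference was -0.45 ± 0.206 log2 units (SE; limma adjusted p 0.131). Heyl held 577, 553, 540, 529 and 517 in controls, 406, 429, 384, 370 and 290 in knockout, and 464, 430, 574, 440 and 486 in D489V. The highest knockout sample of Heyl, at 429, lay just under the lowest D489V sample, at 430. Its log2 change was -0.35 ± 0.123 (SE; limma adjusted p 0.059).

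Against controls no member passed in either mutant group. Both comparisons use the same 5 controls, so their values are set side by side and not tied to each other. In knockout against control 0 of 10 members were called and 0.00656% of 15234 genes were. At an unadjusted p under 0.05 there were 6 members, and 15.1% of all genes. The log2 changes ran from -0.90 (Nrarp) to 0.06 (Notch2) with a median of -0.48, against 0.01 over all genes. Nrarp and Heyl were the only members without overlap, each lower in all knockout samples than in all controls, where 1.25% of all genes were. Nrarp had a log2 change of -0.90 (limma standard error 0.184, adjusted p 0.227) and Heyl one of -0.54 (standard error 0.111, adjusted p 0.227). Each had an exact permutation p of 0.00794, two-sided, the smallest that 5 against 5 samples can give. Dll4, at -0.82, and Dll1, at -0.74, had limma adjusted p of 0.269 and 0.28, with control 3 in the knockout range for both genes and control 4 for Dll4. Without the libraries rich in lymphocyte and venule RNA, the log2 change against control was -0.46 for Dll4, -0.41 for Dll1 and -0.23 for Notch1, each smaller by more than 1.5 times than in all samples (-0.82, -0.74 and -0.41). It was -0.74 for Nrarp, -0.40 for Heyl and -0.71 for Jag1, and no member was called (limma adjusted p 0.703 to 0.969 over the 10).

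In D489V against control 0 of 10 members were called, against 0.0587% of 15339 genes, and 1 had an unadjusted p under 0.05, against 9.43%. Groups overlapped for every member, while 2.16% of all genes showed no overlap. The log2 changes ran from -0.19 (Heyl) to 0.23 (Notch1), with a median of 0.15. Notch1 was the member with the unadjusted p under 0.05 (log2 change 0.23, limma 95% interval 0.01 to 0.46, adjusted p 0.505). The intervals of Dll4, from -0.42 to 0.45, and of Nrarp, from -0.31 to 0.59, leave room for changes of either sign. Without D489V 3, the sample rich in Schwann and nerve markers, the log2 change was -0.01 for Dll1, -0.08 for Dll4 and 0.05 for Hes1. With all samples these were 0.13, 0.02 and 0.18. Notch1 and Jag1 stayed at 0.24 and 0.16 without it. Heyl was alone among the 10 in lying lower in D489V than in controls on average, with 478.8 ± 57.5 against 543.2 ± 23.1 normalized counts (SD, n = 5).

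**Figure D2:**
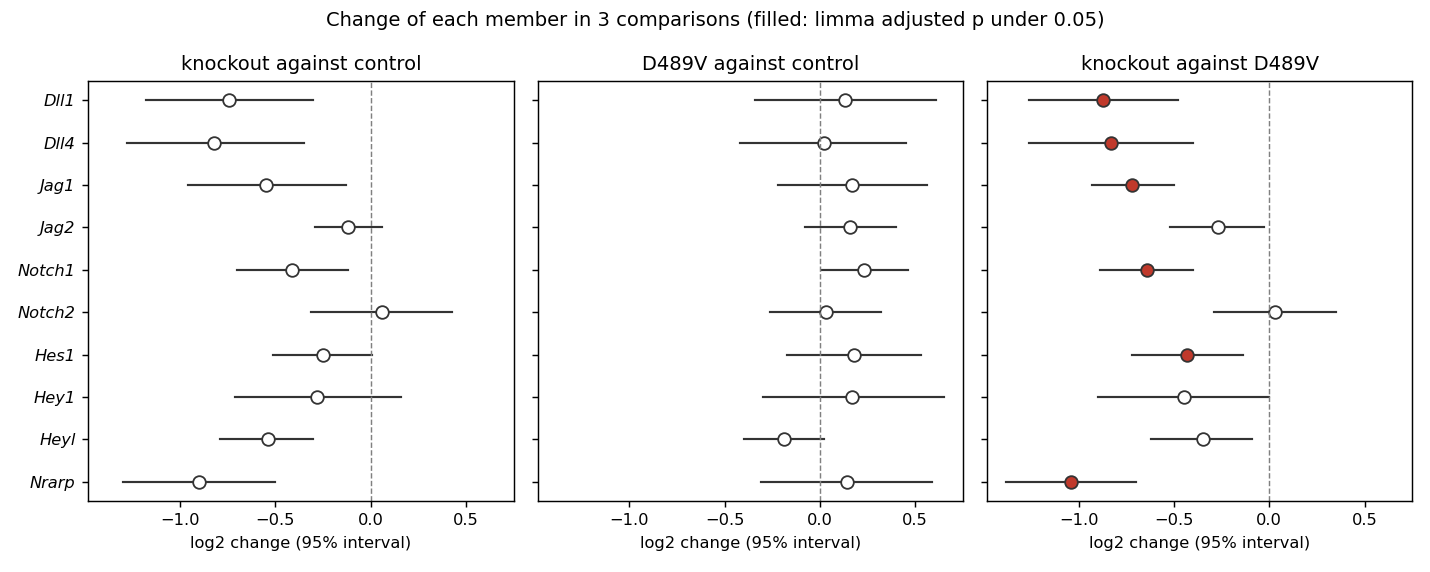
Change on the log2(value + 1) scale (x axis) of each gene (y axis) in the 3 comparisons; points are limma estimates, lines 95% intervals, and filled points have an adjusted p under 0.05. Filled points are in the panel of knockout against D489V alone, where 9 of 10 estimates lie below 0.

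Several members varied together within groups. Controls 1 and 2 were the highest of the 5 for Dll1, Dll4, Jag1, Hes1, Hey1, Heyl and Nrarp, except that control 5 lay 1 count above control 2 for Hes1. With the group means removed, 10 of 45 pairs of members varied together across the 15 samples in permutation tests of both Pearson's and Spearman's coefficient, adjusted over 55 relations. Dll1 and Dll4 had a Pearson r of 0.889 (permutation p 2e-05, adjusted 0.0011) and a Spearman rho of 0.904 (permutation p 3e-05, adjusted 0.00165), and an r of 0.902 without the 2 samples farthest in Dll1. Hey1 and Nrarp had an r of 0.895 (permutation p 2e-04, adjusted 0.00247) and a rho of 0.907 (permutation p 1e-04, adjusted 0.00206), and an r of 0.848 without 2 samples. Notch1 and Notch2 had an r of 0.562 and a rho of 0.536 (permutation p 0.0861 and 0.0746, adjusted 0.169 and 0.171), and an r of 0.426 without 2 samples. These samples share dissection, library and scaling, and no cause of the joint variation was tested.

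Endothelial markers moved with the members. In knockout against D489V, 15 of 16 endothelial genes were called lower and 0 higher, with a median log2 change of -0.59. Their summed level was 18207 to 25988 normalized counts in knockout, below 29501 to 36014 in D489V and below 26944 to 39140 in controls, and none of the 16 was at 0 in any group. Cdh5, the adhesion molecule of endothelial junctions, held 2354 to 4246 in knockout and 4675 to 5256 in D489V (limma adjusted p 0.0172). In knockout against control 0 of the 16 were called and all 16 were lower on average. Of 12 mural cell markers 4 were called lower and 1 higher in knockout against D489V. On average 11 of the 12 were lower and 1 higher, with a median log2 change of -0.44. The summed mural level was 23025 to 25778 in knockout, below 26461 to 32912 in D489V, and controls ran from 24901 to 30590. Against control 11 were lower in knockout and 1 higher, with a median of -0.31 and 0 called. Of 12 satellite cell markers 1 was called higher and 0 lower in knockout against D489V. On average 8 were lower and 4 higher, with a median log2 change of -0.09. Pax7 held 112 to 193 in knockout and 133 to 189 in D489V. In whole muscle RNA, fewer cells of a type and less RNA per cell cannot be told apart.

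Levels were therefore also expressed per 1000 normalized counts of the summed endothelial markers, a setting added after the data were seen. On this scale Nrarp was 14.2 ± 2.63 in controls, 10.7 ± 1.07 in knockout and 15 ± 2.46 in D489V (SD, n = 5). Its knockout samples, at 9.11 to 12, lay below its D489V samples, at 12.2 to 17.3, where 0.582% of all genes lay lower without overlap. That share is not comparable with the 6.7% on the deposited scale. Dividing by a sum that is lower in knockout raises the knockout values of all genes. Nrarp stayed lower in knockout than in D489V in a limma fit of all genes on this scale (log2 change -0.47, standard error 0.15, adjusted p 0.0152), against a median of 0.57 over all genes. On this scale 2 of 10 members were called, against 59.7% of 15112 genes. The other 5 members called on the deposited scale did not pass there, and their changes on this scale include the median shift of 0.57. Less that median they equal the changes on the deposited scale, such as -0.87 for Dll1 and -0.43 for Hes1. Dll4 had a log2 change of -0.26 (limma adjusted p 0.144), Dll1 one of -0.30 (adjusted p 0.115), Jag1 one of -0.15 (adjusted p 0.465), Notch1 one of -0.07 (adjusted p 0.646) and Hes1 one of 0.14 (adjusted p 0.469). Notch2 was higher per endothelial count in knockout than in D489V (log2 change 0.60, limma adjusted p 0.0156), close to the shift of all genes, and than in control (0.57, limma adjusted p 0.0435, where 42.6% of all genes were called).

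Within groups, Dll4 followed the summed endothelial markers (r = 0.885, permutation p 5e-05, adjusted 0.00137; rho = 0.843, permutation p 3e-04, adjusted 0.00297; r = 0.836 without the 2 samples farthest in Dll4). Nrarp did so less closely (r = 0.698, permutation p 0.00563, adjusted 0.0258; rho = 0.668, permutation p 0.00776, adjusted 0.0388; r = 0.65 without 2 samples). These were 2 of the 10 members with both adjusted permutation p under 0.05. For Jag1 the value was r = 0.447 (permutation p 0.201, adjusted 0.276; rho = 0.304, permutation p 0.358, adjusted 0.45), and it changed sign to -0.0939 without 2 samples. With the mean log2 endothelial score as a covariate, also added after the data were seen, 0 members and 1 of 15299 genes were called in knockout against D489V. The scores of these 2 groups do not overlap, at -0.658 to -0.117 and 0.0895 to 0.391, so that group and score cannot be told apart in that fit.

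**Figure D3:**
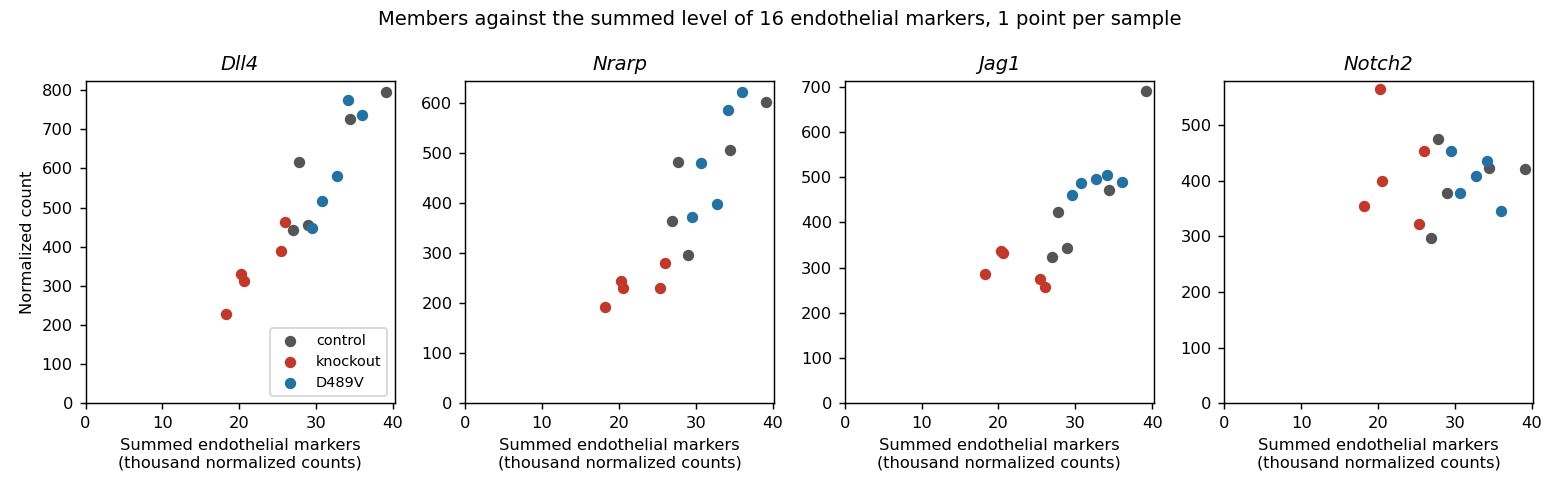
Normalized count of 4 of the genes (y axis) against the summed normalized count of 16 endothelial markers divided by 1000 (x axis), 1 point per sample, coloured by group, both axes from 0. Dll4 and Nrarp are higher in samples with a higher endothelial level, the 5 D489V points of Jag1 stay between 461 and 504, and Notch2 shows no such order.

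Some other marker lists moved as well between knockout and D489V. Called were 0 of 10 muscle fibre, 0 of 10 fibro-adipogenic, 0 of 10 macrophage and 0 of 9 lymphocyte and venule markers. Of 7 myoblast markers 1 was called, lower. Arterial and tip endothelial markers (8 of 12) and venous endothelial markers (3 of 6) were called lower in knockout, with 0 called higher. Of 16 immediate early genes tested, which respond to handling and signalling within minutes to hours, 13 were called lower and 1 higher in knockout. The summed level of the 17 found in the tables was 15021 to 20420 in knockout, 18726 to 25090 in controls and 27686 to 36579 in D489V. Schwann and nerve markers (8 of 9 called lower) and adipocyte markers (7 of 8) were also mostly called lower in knockout than in D489V. Against control, the median log2 change of the immediate early genes was -0.43 in knockout and 0.70 in D489V. It was -0.55 and 0.53 for Schwann and nerve markers, and -0.19 and 1.67 for adipocyte markers. Against control 0 immediate early, Schwann and nerve or adipocyte genes were called in either mutant group. The part of these lists in the values of the Notch genes was not tested.

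The rest of the pathway was read from a list of 75 genes, of which 67 passed the filter on low values. In knockout against D489V 7 were called higher and 6 lower, 19.4% of those tested against 20.8% of all genes, so the count was near the background. The median log2 change was -0.01. In knockout against control and in D489V against control 0 of the 67 were called. Rbpj, the DNA-binding partner of the active receptor, held 563 to 705 normalized counts in knockout and 490 to 816 in D489V (log2 change 0.11, limma adjusted p 0.606). None of the 10 genes for receptor cleavage and none of the 9 of the transcription complex was called.

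The called genes that were lower in knockout than in D489V included Hey2, a HEY family repressor of arteries, though at low counts. It held 11, 9, 17, 28 and 11 in knockout and 41, 30, 44, 24 and 39 in D489V, and controls held 14 to 24. Knockout 4 alone reached into the D489V range, and the difference was -1.26 ± 0.318 log2 units (SE; limma adjusted p 0.0196). Against control the log2 change of Hey2 was 0.83 in D489V and -0.42 in knockout (limma adjusted p 0.267 and 0.522). Egfl7, a secreted endothelial protein that can bind Notch receptors, was lower by a log2 change of -0.92 (adjusted p 0.00693 in limma) and is also one of the 16 endothelial markers. Mfng, a sugar transferase that modifies Notch receptors, was lower by -0.71 (limma adjusted p 0.0193). Numbl, a Numb-like adaptor of receptor turnover, was lower by -0.68 (limma adjusted p 0.0183) and Dtx4, a Deltex ubiquitin ligase, by -0.55 (limma adjusted p 0.0204).

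Genes higher in knockout than in D489V included Tle4, a Groucho-family corepressor that works with HES proteins. It held 762, 710, 735, 650 and 798 in knockout and 481, 406, 311, 532 and 521 in D489V, without overlap, a log2 change of 0.72 (limma adjusted p 0.00746). Controls ran from 376 to 742, across the gap between both groups. Bhlhe41, a clock-related bHLH repressor, had a log2 change of 0.50 (limma adjusted p 0.0292) and Dtx3l, a Deltex-like ligase, one of 0.44 (limma adjusted p 0.0284). Lfng, another sugar transferase of Notch receptors, went the other way from Mfng on average but did not pass (log2 change 0.46, limma adjusted p 0.0915). Hes6, a HES family member of differentiating muscle, did not pass either (0.30, limma adjusted p 0.0868).

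**Figure D4:**
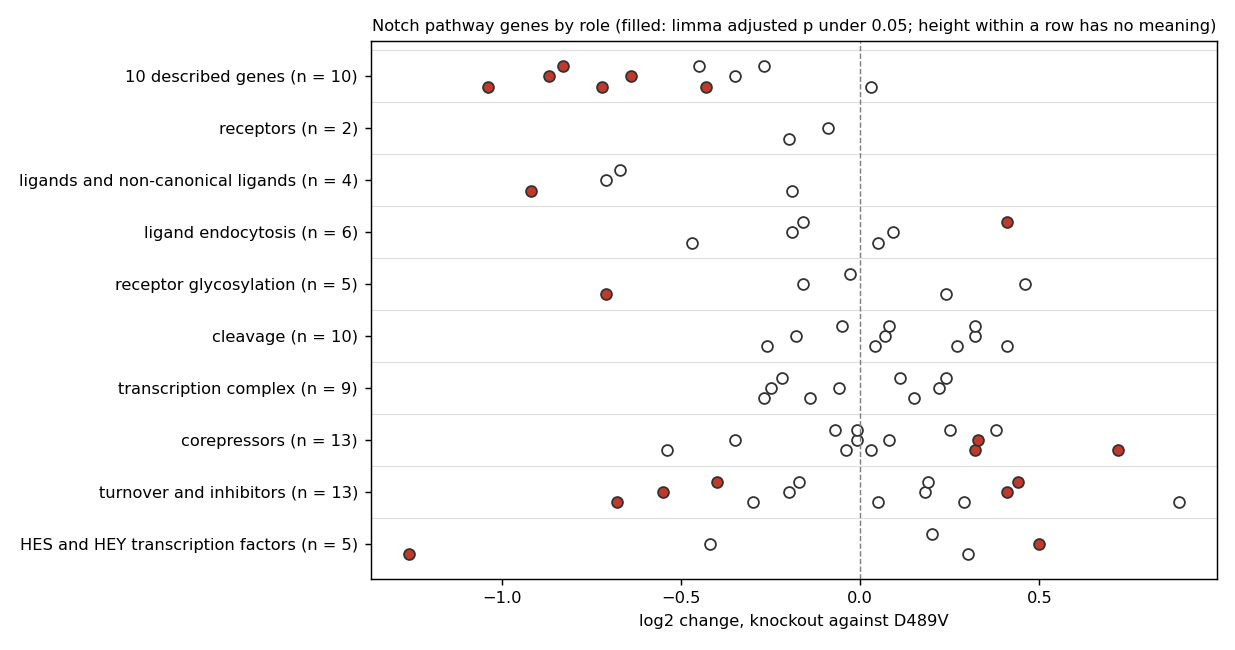
Log2 change of knockout against D489V (x axis) for the 10 genes and the 67 other tested pathway genes, in rows by role; filled points have a limma adjusted p under 0.05. The 6 filled points of the first row all lie below 0, while those of the other rows lie on both sides, 6 below and 7 above.

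Genes with the most similar pattern were ranked by Pearson's r over the 15 samples among 12149 genes with a mean of 50 or more, as a description of genes chosen for this likeness. For Dll4 they were Esam (0.969), Igfbp7 (0.959) and Elk3 (0.957), and Esam is also one of the 16 endothelial markers. For Nrarp they were Nab2 (0.961), Iqce (0.946) and Elk3 (0.945), and for Dll1 Iqce (0.954), Hdac7 (0.95) and Agrn (0.938). Elk3 and Iqce each stood in the first 3 of 2 members. For Notch1 they were Ablim3 (0.937) and Ssh1 (0.934), for Jag1 Il10rb (0.934), Mill2 (0.932) and Sbsn (0.922), and for Hes1 Stx1a (0.968), Cers4 (0.956) and Rbm12b1 (0.948). Hey1 was closest to Dynll1 (0.921), Sox13 (0.915) and Trim47 (0.908), and Heyl to Micall2 (0.919), Stx6 (0.896) and Lxn (0.895). Jag2 was closest to B230206H07Rik (0.895), Kif19a (0.865) and Grip2 (0.863). Notch2 had the lowest first value, with Dock11 (0.846), Unc93b1 (0.835) and Snn (0.783). All of these values share the same libraries, and the differences between groups enter them.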

How the data were processed

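Poly(A) RNA of 15 skeletal muscle samples was sequenced from directional libraries, per the labels' protocols. Values are treated as a score, because the authors deposited normalized counts as whole numbers in 2 tables, per the file names and values. Trim Galore 0.6.0, cutadapt, FastQC, STAR 2.7.0e, DESeq2 1.26.0 and GRCm38 are listed, without roles, in the submitters' processing notes, and the counting tool is not given in the sources used here. Depth in reads is not known, because the values are normalized.

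Both tables were joined by gene identifier. The control columns were identical in them (0 differing values), so knockout and D489V could be compared directly. Coordinates and exon lengths came from GENCODE M21 on GRCm38, which matched all 55536 identifiers. limma 3.58.1 under R 4.3.3 (eBayes with trend, two-sided) tested 5 against 5 samples on log2(value + 1), which understates changes of low genes, for genes with 10 or more in at least 5 samples, with Benjamini-Hochberg adjustment over all genes tested and a threshold of 0.05. The script was tested on simulated data.

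Members and lists were chosen with earlier results of these data known. All members are named. Of the other pathway genes, Notch3, Notch4, Rbpj, Lfng, Hes6 and Hey2 and up to 8 called genes per comparison are named, with the 3 genes most like each member, of which 1 is not reported here. Alternatives changed the pseudocount, filter, scaling, variance model, weights and samples, and added the replicate number as a block. Python 3.11.15 was used for preparation and plots.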

Additional observations from a re-analysis of the deposited data

Results flagged for a closer look

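Of 48 groups of 5 log2 values tested, for the 10 members and 6 other named pathway genes, 1 held a sample whose gap to the nearest other was above 0.71 of the group's range, against 2.4 by chance. Notch1 was far in D489V 2, at 938 normalized counts, a gap of 0.789 of the range, with the rest of that group at 818 to 842. Without D489V 2, Notch1 in knockout against D489V had a log2 change of -0.61 (limma adjusted p 0.0188).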

How the results depend on the processing

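Of 230 values of the 10 members under alternatives, 186 in knockout against D489V kept direction and side of the threshold, 25 lost it, 7 gained it and 12 changed sign. The members called numbered 5 to 7 when one sample was left out, 2 without the lymphocyte-rich libraries, 0 with the endothelial covariate and 2 per summed endothelial markers, where 1 was also called in knockout against control. No other setting called a member against controls. What causes these shifts was not tested.

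Over all genes, leaving out one sample gave 1 to 7 calls in knockout against control (7 without knockout 2, 4 without control 5, and 2 without control 3, control 4 or knockout 3), 2 to 26 in D489V against control (26 without D489V 3, 15 without control 3 and 6 without control 5, and 2 to 4 without any of the others) and 1398 to 3686 in knockout against D489V (1398 without D489V 1, 1526 without D489V 2 and 1989 without D489V 3). In knockout against control 3 genes passed with quantile normalization, 16 with all 15 samples in 1 fit, 0 with the endothelial covariate, 6432 per summed endothelial markers and 3 without the lymphocyte-rich libraries. In D489V against control 19 passed with pseudocount 5, 4 with a mean of 50 or more, 29 with upper-quartile rescaling (75.9% higher, against 44.4% as deposited), 16 with quantile normalization, 21 with robust eBayes, 86 with array weights, 1 with all samples in 1 fit, 43 with the endothelial covariate and 5 per summed endothelial markers. In knockout against D489V 1 passed with the endothelial covariate, 9028 per summed endothelial markers and 586 without the lymphocyte-rich libraries. A fit with the replicate block, though same-numbered samples had correlations of -0.4 to 0.386 and the numbers were not taken to pair the samples, passed 1, 7 and 2208 genes in the 3 comparisons and 5 members in the last, without Hes1.

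Signs changed per summed endothelial markers, which moved the median of all genes by 0.52, -0.06 and 0.57: in knockout against control for Notch1 (0.10), Jag2 (0.39), Hes1 (0.26) and Hey1 (0.23), in D489V against control for Notch2 (-0.03) and Dll4 (-0.05), and in knockout against D489V for Jag2 (0.30), Hes1 (0.14), Hey1 (0.12) and Heyl (0.22). With the endothelial covariate they changed for Hey1 in knockout against control (0.19), Dll4 in D489V against control (-0.13), and Notch2 (-0.12), Dll4 (0.29) and Hey1 (0.29) in knockout against D489V. Notch2 changed sign with array weights in D489V against control (-0.04), and in knockout against D489V with upper-quartile rescaling (-0.03) and without the lymphocyte-rich libraries (-0.07). Fits without one sample spanned 0 for Notch2 in all 3 comparisons (-0.06 to 0.15, -0.07 to 0.10 and -0.08 to 0.12), and for Dll1 (-0.02 to 0.23) and Dll4 (-0.09 to 0.12) in D489V against control.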
